A study of Mus musculus with 12 samples.

Results

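The 6 wildtype libraries among 12 RNA-seq libraries of mouse myotubes fell into 2 sets of 3 that share every label, and the difference between these sets is described here across all genes. Libraries 1, 2 and 3 form one set and libraries 7, 8 and 9 the other, by the numbers in their titles. They are replicates 1 to 6 of the wildtype label. The split was chosen on measured values, since genes known to be induced by the hypoxia-inducible factor (HIF) separate the sets. Every gene of this contrast was therefore used in the choice. All differences below are descriptions of these 6 libraries, and no test was run.

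Primary myoblasts from mice with a floxed Bmal1 gene (symbol Arntl, the clock activator) were differentiated into myotubes in low horse serum. They received adenovirus for 48 h, either with Cre, which deletes Bmal1, or without it as the control, and then 6 h in 21% or 1% oxygen. All 12 libraries thus carry the floxed allele and an adenovirus, and wildtype means floxed cells with the empty virus. The labels give all 6 wildtype libraries 21% oxygen and all 6 knockout libraries 1% oxygen. They name no mouse, age, sex or culture, so the spread within a set may be technical. The paper was not used here. The hypoxia genes go against 1 oxygen level per genotype: Ndrg1, for example, had 299 to 329 normalized counts in knockout libraries 4 to 6 and 5062 to 5406 in knockout libraries 10 to 12, all labelled 1% oxygen. The oxygen that each library had was not tested, so no library was relabelled, and the sets are named by their numbers.

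HIF is a transcription factor whose alpha subunits are hydroxylated by the oxygen-dependent EGLN enzymes, bound by the VHL ubiquitin ligase and destroyed while oxygen is present. At low oxygen the alpha subunit persists, pairs with ARNT and binds the core letters ACGTG or GCGTG near its target genes. Known targets move glucose into the cell, speed glycolysis, hold pyruvate away from mitochondria, recruit vessels and include EGLN enzymes themselves. In muscle this response is known for its place in ischaemia and exercise.

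The 250 bases before the start of Egln3, Slc2a1, Ankrd37 and Ciart are shown because these genes stand for the HIF pathway and the clock in the values that follow. They are RefSeq sequences of build GRCm38.p6, 5′ to 3′ on the gene's own strand, with ACGTG or GCGTG on either strand in capitals, overlaps included. Egln3 lies on the minus strand at chr12:54203875-54204124, Slc2a1 on the plus strand at chr4:119108495-119108744, Ankrd37 on the minus strand at chr8:45999851-46000100 and Ciart on the minus strand at chr3:95882229-95882478. The starts are those of RefSeq. For Ankrd37 the window lies inside the longer GENCODE span given below, so it is not upstream of the GENCODE start.
Egln3: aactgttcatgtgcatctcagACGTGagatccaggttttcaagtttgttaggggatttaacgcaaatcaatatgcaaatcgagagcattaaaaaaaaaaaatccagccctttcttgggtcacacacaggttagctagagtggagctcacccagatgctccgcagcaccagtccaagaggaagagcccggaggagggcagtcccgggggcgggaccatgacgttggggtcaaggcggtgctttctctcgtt
Slc2a1: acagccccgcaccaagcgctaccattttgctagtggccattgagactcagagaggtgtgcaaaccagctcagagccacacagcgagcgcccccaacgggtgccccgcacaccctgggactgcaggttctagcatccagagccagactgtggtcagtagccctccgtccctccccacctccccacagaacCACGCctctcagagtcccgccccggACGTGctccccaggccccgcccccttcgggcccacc
Ankrd37: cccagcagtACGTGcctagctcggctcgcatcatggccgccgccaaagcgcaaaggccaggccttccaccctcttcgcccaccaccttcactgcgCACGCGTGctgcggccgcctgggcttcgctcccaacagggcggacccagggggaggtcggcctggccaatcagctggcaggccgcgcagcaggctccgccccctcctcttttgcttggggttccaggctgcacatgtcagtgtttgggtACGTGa
Ciart: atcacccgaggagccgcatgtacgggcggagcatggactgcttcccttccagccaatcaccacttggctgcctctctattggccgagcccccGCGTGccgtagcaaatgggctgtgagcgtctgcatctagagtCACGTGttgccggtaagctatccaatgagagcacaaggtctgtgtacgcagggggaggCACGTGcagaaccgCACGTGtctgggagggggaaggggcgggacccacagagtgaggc
Egln3 holds 1 such match, Slc2a1 2, Ankrd37 4 and Ciart 7. In Ciart 3 stretches read CACGTG, the E-box letters that BMAL1 binds, and each of these is counted from both strands. The motif is common: 43.8% of 32851 RefSeq windows of 300 bases, from 250 before to 50 after a start, hold at least 1 match, and so do 62.0% of the 12533 windows that matched measured genes. A match is a run of letters, not a measured binding site.

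The 4 genes that mark the split separate the sets by 6.75-fold to 14.8-fold (positions here and below are those of GENCODE M21 on GRCm38, the same assembly as mm10). Ndrg1 (ENSMUSG00000005125, chr15:66929318-66969640), a stress-induced gene with a long-known hypoxia response, had 367, 369 and 340.1 normalized counts in libraries 1, 2 and 3. In libraries 7, 8 and 9 it had 5267, 5518 and 5195. The sets are far apart relative to the spread within each. The difference, always given as the mean of log2(normalized count + 1) in libraries 7 to 9 minus that in libraries 1 to 3 with its standard error (n = 3 and 3), was 3.89 ± 0.05.

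Egln3 (ENSMUSG00000035105, chr12:54178981-54203860), the EGLN enzyme known as a HIF target, had 270.3, 243 and 241 normalized counts in libraries 1, 2 and 3 and 2218, 2258 and 2199 in libraries 7, 8 and 9, a difference of 3.14 ± 0.05. Slc2a1 (ENSMUSG00000028645, chr4:119108711-119137983), the basal glucose transporter GLUT1, had 553, 475 and 521 against 3457, 3514 and 3487, a difference of 2.75 ± 0.06. Ankrd37 (ENSMUSG00000050914, chr8:45996902-46005707), an ankyrin repeat protein, had the lowest level of the 4, with 22.9, 20.1 and 22.4 against 247, 212 and 218. No marker overlaps between the sets, and library 2 lies with libraries 1 and 3 in all of them.

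**Figure D1:**
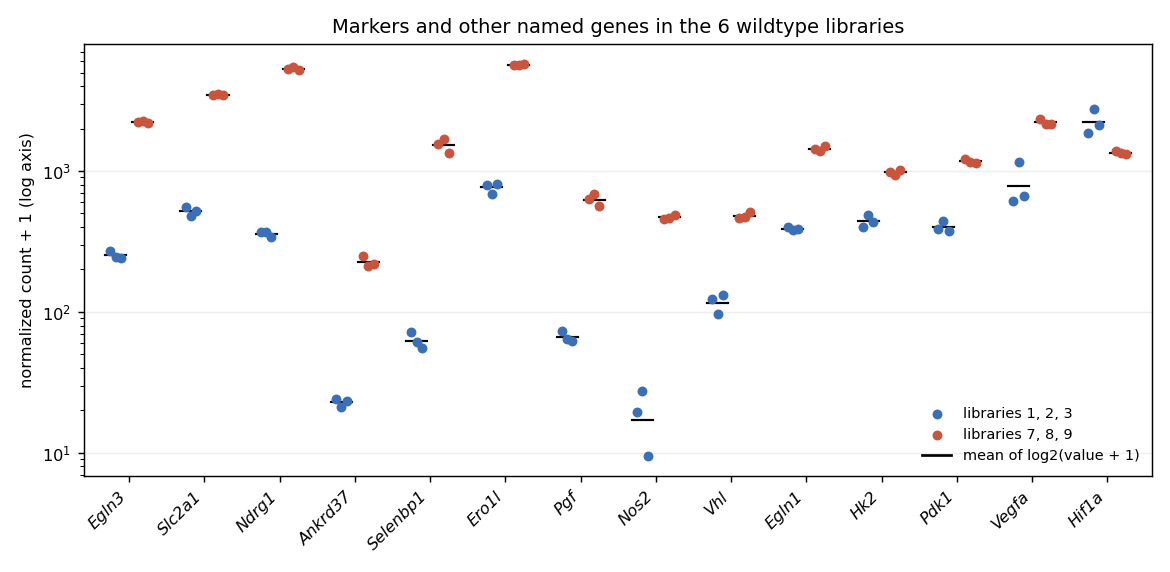
Normalized count + 1 (log axis) of 14 genes in the 6 wildtype libraries; each point is 1 library, and each black line is the mean on the log2 scale. Libraries 7 to 9 lie above libraries 1 to 3 for 13 of the genes, and Hif1a is the one gene drawn that lies lower in libraries 7 to 9.

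Library 2 stands apart from the other wildtype libraries and touches several results. The reads recovered from the table numbered 6376584 in library 2 and 10765961 to 11995291 in the other wildtype libraries. Of all genes in the table, 29.6% were at 0 in library 2, against 13.03% to 15.4% in the others. Reads outside the 11 most abundant genes, which hold 62.6% to 65.3% of the reads in libraries 1 to 3 and 51.2% to 54.5% in libraries 7 to 9, ranged from 2381830 to 5485227. A floor of 3 reads, taken here as the most that a count of 0 allows, is worth 2.12 to 4.65 normalized counts. Arntl, the deleted gene, had 133, 156 and 138 normalized counts in libraries 1 to 3 and 179, 178 and 155 in libraries 7 to 9, while the 6 knockout libraries had 41.7 to 48.6, so it follows the genotype label in all 12.

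Of 12633 genes with a mean of 10 or more over the 6 libraries, 528 were higher in libraries 7 to 9 by 2-fold or more with no overlap between the sets, which is 4.18% of those genes. By the same rule 218 were lower, which is 1.73%. These 2 shares are the background for every list below, and a gene is called higher or lower only in this sense. At any size, 2214 genes (17.5%) were higher and 2054 (16.3%) lower with no overlap. The median difference over all genes was 0.0067 on the deposited scale. It was -0.083 with the 11 abundant genes left out and library totals as the scale, so the centre depends on the scaling. Without library 2, 481 genes were called higher and 199 lower.

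The large differences lie almost wholly on the higher side. Among called genes, 364 were higher by 2-fold to 4-fold, 104 by 4-fold to 8-fold and 60 by 8-fold or more, against 203, 15 and 0 that were lower. Just inside the fold limit stand Mllt3 at 1.00033, Incenp at -1.00165 and Nt5c2 at 1.00344, and just outside stands Amigo2 at -0.999922. With the 11 abundant genes left out and library totals as the scale, 458 were higher and 303 lower, so the higher share of all calls went from 70.8% to 60.2%. Reads thinned to the depth of library 2, also without the 11 abundant genes and on the scale of library totals, gave 460 higher and 324 lower. Their higher share of 58.7% is to be set beside 60.2% and not beside 70.8%, since the scale differs too.

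**Figure D2:**
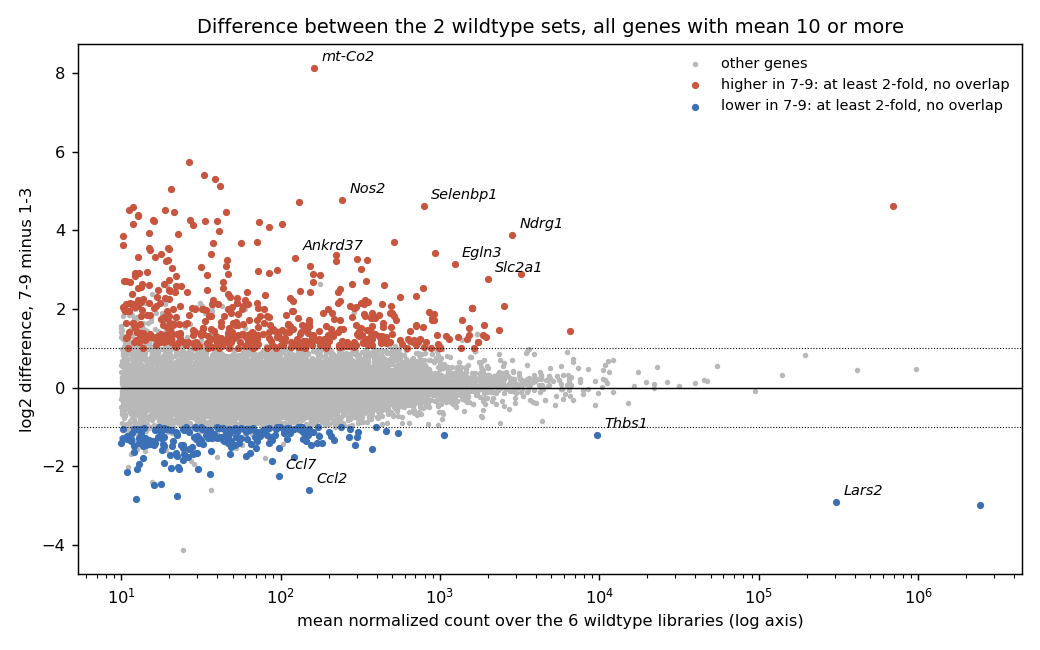
Log2 difference (libraries 7 to 9 minus 1 to 3) against the mean normalized count over the 6 wildtype libraries (log axis), 1 point for each of 12633 genes. The 528 genes called higher reach far beyond the 2-fold lines, while of the 218 called lower 203 lie between 2-fold and 4-fold; mt-Co2, with 0 reads in libraries 1 to 3, is drawn at a value that the added 1 sets.

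In the HIF system itself Vhl, Egln1 and Egln3 were higher, and the subunit genes were not. Of 12 measured members of the list of subunits and oxygen sensors, 3 were called higher and 0 lower, with a list median of 0.17. The 3 include Egln3, a marker of the split, so this count is a description only. Vhl, the ubiquitin ligase part that recognises hydroxylated HIF, had 122, 96.02 and 129.9 normalized counts in libraries 1 to 3 and 461, 471 and 513 in libraries 7 to 9. Egln1, the main oxygen sensor, had 398, 379 and 389 against 1437, 1389.5 and 1492, a difference of 1.89 ± 0.04. Both sets are tight and apart for these 2 genes. Hif1a, the alpha subunit, was lower instead, with 1858, 2754 and 2125 against 1376, 1332 and 1328, a difference of -0.72 ± 0.17 that has no overlap but stays under 2-fold. Epas1, which encodes HIF-2 alpha, differed by 0.19 ± 0.15, Arnt by -0.04 ± 0.25 and the asparagine hydroxylase gene Hif1an by -0.04 ± 0.05, all with overlapping sets.

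Hypoxia-induced genes outside glycolysis gave the largest share of calls among the lists. Of 47 measured members 30 were called higher and 0 lower, and the median was 1.44 (1.55 without library 2). This list holds the marker Ndrg1 and overlaps in kind with the genes that chose the split, so its count is a description only. Selenbp1, which encodes a selenium-binding methanethiol oxidase, had 70.4, 60.4 and 54.2 normalized counts in libraries 1 to 3 and 1552, 1688 and 1342 in libraries 7 to 9, a difference of 4.61 ± 0.14. Ero1l, the oxidase that drives disulfide formation in the endoplasmic reticulum, had 791, 691 and 814 against 5648, 5659 and 5788. The 3 values are close within each set and 7.46-fold apart between sets. Bnip3, a mitophagy receptor, had 967, 932 and 974 against 4148, 4016 and 4050.5.

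Other members of this list span secreted, membrane and nuclear roles. The carbonic anhydrase genes Car9 and Car12, which set pH at the cell surface, had differences of 1.83 ± 0.27 and 3.09 ± 0.39. The stanniocalcin genes Stc1 and Stc2 had 2.16 ± 0.14 and 1.89 ± 0.16. Hilpda, an inhibitor of lipid droplet breakdown, had 45.8, 44.9 and 36.4 normalized counts in libraries 1 to 3 and 386, 428 and 394 in libraries 7 to 9. Members with overlapping sets include Cxcr4 (0.06 ± 0.13), Tfrc (0.21 ± 0.19) and Pim1 (0.23 ± 0.09), so not every member was higher.

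The glucose transporter genes Slc2a1 and Slc2a3 were called higher, and the lactate transporter genes differed less. Of 18 measured genes of glucose and lactate transport and pyruvate entry, 5 were called higher and 0 lower. The 5 include Slc2a1, a marker of the split, so this count is a description only. Slc2a3, the high-affinity glucose transporter GLUT3, had 51.1, 80.5 and 41.1 normalized counts in libraries 1 to 3 and 511, 618 and 507 in libraries 7 to 9. To compare the genes, reads were scaled to the reads outside the 11 abundant genes and given per kilobase of exon, which is not the normalized count. On this scale the mean of Slc2a1 went from 40.6 to 257 and that of Slc2a3 from 2.18 to 19.5. The mean of Slc2a4 (the insulin-regulated GLUT4) went from 6.79 to 7.995. Slc2a1 was thus the most abundant of the 3 in both sets, and Slc2a4, at 0.33 ± 0.37, overlapped between them.

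Pdk1, the kinase that switches off pyruvate dehydrogenase, had 386, 439.8 and 373 normalized counts in libraries 1 to 3 and 1214, 1167 and 1138 in libraries 7 to 9, a difference of 1.56 ± 0.08. Slc16a3, the lactate exporter MCT4, had 1143, 971 and 1059 against 2628, 2893 and 2482, and Slc16a1 (MCT1) differed by 1.19 ± 0.11. The pyruvate dehydrogenase subunit genes and both pyruvate carrier genes were not called.

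Of 23 measured glycolysis enzyme genes, 5 were called higher and 0 lower, 22 had a positive difference, and the median was 0.65. Hk1 and Hk2, the hexokinases that trap glucose, differed by 1.61 ± 0.05 and 1.16 ± 0.09. Pfkfb3, which makes the activator of phosphofructokinase, had 119.7, 124 and 110.2 normalized counts in libraries 1 to 3 and 561, 551 and 563 in libraries 7 to 9, the highest of the list at 2.24 ± 0.05. The abundant enzymes of the later steps had smaller differences. Gapdh had 9393, 9299.9 and 9068 against 14528, 15521 and 15204, a 1.63-fold difference with no overlap, and Ldha differed by 0.65 ± 0.07. The muscle isoform genes Eno3, Pgam2 and Pfkm overlapped between the sets and were not called.

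Glycogen genes held 7 called higher of 21, with 0 lower and a median of 0.32. Gys1, the muscle glycogen synthase, had 664, 736 and 548 normalized counts in libraries 1 to 3 and 2011, 2130.2 and 2199.7 in libraries 7 to 9. Gbe1, the branching enzyme, differed by 2.18 ± 0.23, and Pygl, the liver-type phosphorylase, by 1.47 ± 0.20. Among the targeting subunits that bring protein phosphatase to glycogen, Ppp1r3b differed by 2.72 ± 0.24 and Ppp1r3c by 2.70 ± 0.52. Ppp1r3e had 2.64, 1.55 and 4.67 normalized counts in libraries 1 to 3, at or near the floor, and 25.6, 43.9 and 35.7 in libraries 7 to 9, so its difference of 3.23 ± 0.40 depends on the added 1 and was 1.78 with 10 added. Synthesis and breakdown genes were thus both among the calls, and Pygm, the muscle phosphorylase, was not.

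Angiogenic signals went both ways, with 7 of 30 called higher and 2 lower and a median of 0.11. Pgf, placental growth factor, had 72.2, 63.5 and 60.7 normalized counts in libraries 1 to 3 and 633, 683 and 568 in libraries 7 to 9, a 9.46-fold difference. Vegfa, the main endothelial growth factor, had 610.1, 1166 and 661 against 2336, 2165 and 2158. Library 2 is the highest of its set for Vegfa and the sets still do not overlap. Adm (adrenomedullin) differed by 2.13 ± 0.08 and Apln (apelin) by 2.08 ± 0.11.

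The members called lower were Hgf and Thbs1. Hgf, hepatocyte growth factor, had 91.6, 72.8 and 75.7 normalized counts in libraries 1 to 3 and 30.7, 30.4 and 34.97 in libraries 7 to 9. Thbs1, a thrombospondin known to oppose vessel growth, had 12550.0, 15775 and 12432 against 5346, 6324 and 5875, a difference of -1.21 ± 0.13 at a high level. Vegfb and Vegfc differed by 0.33 ± 0.08 and -0.45 ± 0.25 and were not called. Edn1 (endothelin) was called higher but rests on few reads, with 13.2, 0 and 13.1 against 16.8, 22.6 and 20.7 normalized counts, and library 2 at 0.

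Among oxygen-dependent chromatin demethylases 2 of 24 were called higher and 0 lower. They were Kdm3a, an H3K9 demethylase, at 1.16 ± 0.19, and Jmjd6 at 1.66 ± 0.06. Kdm4b (0.82 ± 0.11) and Kdm5a (0.89 ± 0.18) had no overlap and stayed under 2-fold over all 6 libraries. This count rests on library 2, since 6 of the 24 were called higher without it, and the median went from 0.27 to 0.51. Of the 16 collagen hydroxylase and lysyl oxidase genes 1 was called, Plod2, a collagen lysyl hydroxylase, with 1219, 1247 and 1276 normalized counts in libraries 1 to 3 and 3460.3, 3534 and 3415 in libraries 7 to 9. P4ha1, P4ha2, Plod1 and Lox differed by 0.62 ± 0.02, 0.70 ± 0.05, 0.85 ± 0.10 and 0.74 ± 0.06, each with no overlap. Of the 38 collagen and matrix genes, 1 was called higher (Timp3, 1.91 ± 0.16) and 1 lower (Lama5), and Lama5 rests on library 2, since its difference went from -1.16 to -0.52 without it.

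Genes of the respiratory chain held few calls. Of 60 nuclear genes of the chain and the ATP synthase 0 were called, with a median of 0.19 (0.049 without library 2). Without overlap 11 of the 60 were higher and 1 lower, against 17.5% and 16.3% of all genes. The exceptions among isoform genes were Cox4i2, the low-oxygen isoform of a cytochrome oxidase subunit, with 6.16, 1.55 and 12.1 normalized counts in libraries 1 to 3 and 27.8, 45.3 and 38.5 in libraries 7 to 9, and Higd1a at 1.77 ± 0.21. Cox4i2 went from 2.59 to 1.95 without library 2. Cox4i1, the usual isoform, differed by 0.32 ± 0.19. Lonp1, the mitochondrial protease, differed by 0.67 ± 0.03 and Ndufa4l2 by 0.76 ± 0.10, both without overlap and under 2-fold. Pprc1, a coactivator of mitochondrial gene expression, was lower, with 202, 223 and 198 against 65.01, 94.8 and 83.5.

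The 13 measured mitochondrially encoded genes gave 1 call each way, or 1 higher and 2 lower without library 2. Without overlap 1 of the 13 was higher and 5 lower, against 17.5% and 16.3% of all genes. The median was -0.22, or -0.39 without library 2. The gene mt-Co2 had 0 reads in libraries 1, 2 and 3, and 379, 473 and 121 normalized counts in libraries 7, 8 and 9. The mean of libraries 7 to 9 was 96.5-fold the mean floor of 3 reads in libraries 1 to 3, a ratio of means that library 9 alone does not reach. Reads of mt-Co2 were present in all 6 knockout libraries, and mt-Co1 and mt-Co3 overlapped between the wildtype sets. The gene mt-Nd3, a complex I subunit, was lower, with 276, 324 and 146 against 80.4, 74.3 and 113.

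**Figure D3:**
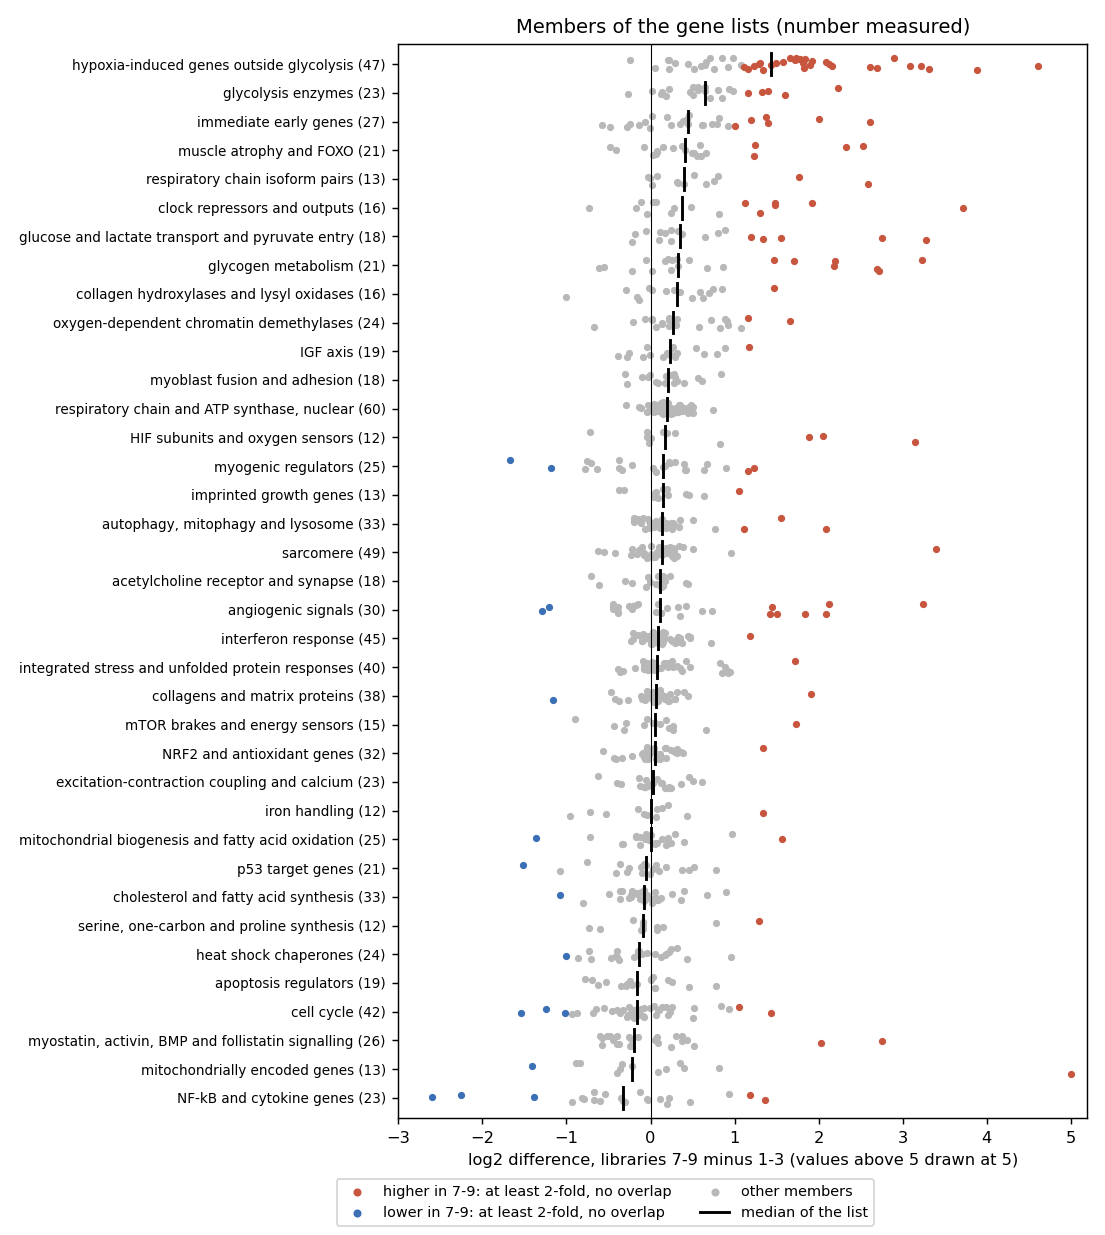
Log2 difference (libraries 7 to 9 minus 1 to 3) of each measured member of every pathway list with 10 or more members, in the order of their medians (black lines). Hypoxia-induced genes outside glycolysis lie at the top with a median of 1.44 and glycolysis enzymes next at 0.65, while NF-kB and cytokine genes have -0.33 over all 6 libraries and -0.21 without library 2.

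Of 16 measured repressors and outputs of the clock, 6 were called higher and 0 lower, and of 5 activators and ROR receptors 1 was called higher. Bhlhe40 (DEC1), a repressor of BMAL1-driven genes and known HIF target, had 369, 375 and 318 normalized counts in libraries 1 to 3 and 1313, 1359.7 and 1357 in libraries 7 to 9. Bhlhe41 (DEC2) differed by 1.48 ± 0.27 and Nfil3, a repressor at D-boxes, by 1.31 ± 0.12. These 3 genes are tight within each set apart from Bhlhe41 in library 2.

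Ciart, the repressor whose promoter letters are shown above, had 28.2, 0 and 28.03 normalized counts in libraries 1 to 3 and 122, 124 and 123 in libraries 7 to 9. The value of 0 in library 2 makes its difference 3.71 ± 1.62, and without library 2 it was 2.09, still called. Cry2 had 110.0, 150.2 and 128 against 379.9, 378 and 328, Rora 246, 283 and 268 against 572, 647 and 727, and Per1 100.4, 129 and 115 against 206, 221 and 345. Per1 was not called without library 9.

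The clock genes that follow were not called, and Clock was the 1 of them whose sets did not overlap. Arntl differed by 0.26 ± 0.10, Clock by -0.13 ± 0.03, Cry1 by 0.49 ± 0.38, Per2 by 0.81 ± 0.46, Nr1d1 by 0.25 ± 0.17, Nr1d2 by 0.06 ± 0.10 and Tef by -0.17 ± 0.15. Npas2 differed by 0.55 ± 0.30 and Dbp by -0.12 ± 0.20. Arntl2, Per3, Csnk1d and Csnk1e were at -0.13, -0.73, 0.03 and -0.04.

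Immediate early genes, which respond within minutes to stress and growth signals, had 6 of 27 called higher and 0 lower. Fos, a subunit of AP-1, had 22.9, 23.2 and 20.6 normalized counts in libraries 1 to 3 and 93.5, 84.2 and 99.9 in libraries 7 to 9. Ier3 differed by 2.61 ± 0.28 and Fosl1 by 1.37 ± 0.16, while Egr1 and Myc overlapped. In contrast 1 of 40 genes that answer protein folding or amino acid stress was called, Vldlr, a lipoprotein receptor, at 1.72 ± 0.09, and the chaperone Hspa5 differed by -0.05 ± 0.03.

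Some genes of energy and metal stress were called. Ddit4, a brake on mTOR, had 448, 316 and 478 normalized counts in libraries 1 to 3 and 1382, 1374 and 1316 in libraries 7 to 9. Ulk1, the kinase that starts autophagy, differed by 1.56 ± 0.25. Hmox1, haem oxygenase, differed by 1.34 ± 0.04, the 1 call in 32 antioxidant genes. Foxo3, a driver of muscle protein loss, differed by 1.23 ± 0.03, and the atrophy ligase genes Trim63 and Fbxo32 by 0.41 ± 0.15 and 0.55 ± 0.10, under 2-fold.

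The metallothionein genes Mt1 and Mt2, which bind zinc and copper, lie next to each other on chromosome 8. Mt1 had 275, 173 and 266 normalized counts in libraries 1 to 3 and 1198, 1157 and 1168 in libraries 7 to 9, and Mt2 had 309.9, 127 and 292 against 1334, 1275 and 1322. Library 2 is the lowest for both. The 2 genes are similar in sequence, and the counting could split shared reads between them.

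The largest positive differences outside the lists include transport and enzyme genes. Nos2, the inducible nitric oxide synthase, had 18.5, 26.3 and 8.41 normalized counts in libraries 1 to 3 and 453, 462 and 489.6 in libraries 7 to 9, a 27.4-fold difference. Atp7b, a copper-exporting ATPase, had 7.92, 6.19 and 5.61 against 116, 153 and 148. Amz1, a metallopeptidase gene, had 14.1, 1.55 and 19.6 against 204, 282 and 257. All 3 are near the floor in libraries 1 to 3, and Amz1 went from 4.73 to 3.80 without library 2.

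Fam117b, by contrast, was well counted in both sets, with 163, 144 and 169 normalized counts in libraries 1 to 3 and 1614, 1716 and 1809 in libraries 7 to 9. Cacna1h, a T-type calcium channel gene, had 33.5, 132 and 10.3 against 440.5, 357 and 364, and libraries 1 to 3 spread widely (a difference of 3.38, or 4.29 without library 2). Fmo2, a flavin monooxygenase gene, had 28.2, 9.29 and 29.9 against 167, 199.5 and 139.9. Other large differences were those of Depp1 (4.09 ± 0.43), Proser2 (3.69 ± 0.15), Nrn1 (3.09 ± 0.71), Kbtbd11 (3.01 ± 0.13), Dpf1 (2.93 ± 0.90), H2-Ab1 (2.90 ± 0.30) and Mpp2 (2.86 ± 0.12). Dpf1 and Nrn1 spread most among libraries 1 to 3, with library 2 at the far end in both, and without it they differed by 3.82 and 2.38.

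The monocyte attractants Ccl2 and Ccl7 had the largest negative differences of the cytokine list. Ccl2 (ENSMUSG00000035385, chr11:82035571-82037453) had 247, 211 and 319.5 normalized counts in libraries 1 to 3 and 41.6, 38.2 and 44.3 in libraries 7 to 9. Ccl7 (ENSMUSG00000035373), whose start lies 8259 bases beyond the end of Ccl2, had 160.2, 135 and 189 against 35.1, 36.8 and 27.1. Il6 was also lower, with 16.7, 26.3 and 24.3 against 10.2, 4.24 and 10.7, near the floor. Of 23 NF-kB and cytokine genes 3 were called lower and 2 higher, with a median of -0.33. That median depends on low genes and on library 2, at -0.036 for the 17 members with a mean of 50 or more and -0.21 without library 2. The higher ones were Lif (1.37 ± 0.26) and Ptgs2 (1.18 ± 0.06), the inducible cyclooxygenase.

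Mitotic genes were lower in part. Of 42 cell cycle genes 3 were called lower and 2 higher, with a median of -0.16. Cdc20, an activator of the anaphase-promoting complex, had 136, 153 and 149 normalized counts in libraries 1 to 3 and 46.02, 57.3 and 46.4 in libraries 7 to 9. Ccnb1 (cyclin B1) differed by -1.24 ± 0.22 and Plk1, a mitotic kinase, by -1.02 ± 0.22. Cdkn1b (p27), an inhibitor of cyclin-dependent kinases, was higher at 1.43 ± 0.20. Mki67, Cdk1 and the Mcm genes of DNA replication were not called, and the 3 genes called lower all act in mitosis.

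Outside that list Kpna2, an importin, had 519, 621 and 535 normalized counts in libraries 1 to 3 and 186, 202 and 178 in libraries 7 to 9. Knl1, a kinetochore gene, had 166, 297 and 229 against 67.9, 87.7 and 88.5. Jag1, a Notch ligand, had 385, 527 and 380.3 against 160.0, 161 and 141. Heyl, a Notch target, differed by -1.67 ± 0.22, and Rspo2, which strengthens Wnt signals, by -1.30 ± 0.18.

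Several of the 25 genes named for the largest negative differences rest on library 2. Ect2, a cytokinesis gene, had 119.7, 336 and 146 normalized counts in libraries 1 to 3 and 43.8, 88.4 and 97.1 in libraries 7 to 9. Its difference went from -1.31 to -0.86 without library 2, and those of Ddx31, Usp46, Zfp518b and Ptgir went to -0.90, -0.91, -0.73 and -0.94, so none of the 5 was called without it. Elovl6, a fatty acid elongase gene, went from -1.08 to -0.98. The calls of Rab3il1, Fjx1, Urb1, Arsi, Kcnj15, Sec16b, Tbc1d2b and Usp10 remained, with differences of -1.88, -1.73, -1.47, -1.43, -1.41, -1.40, -1.33 and -1.32 over all 6 libraries.

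**Figure D4:**
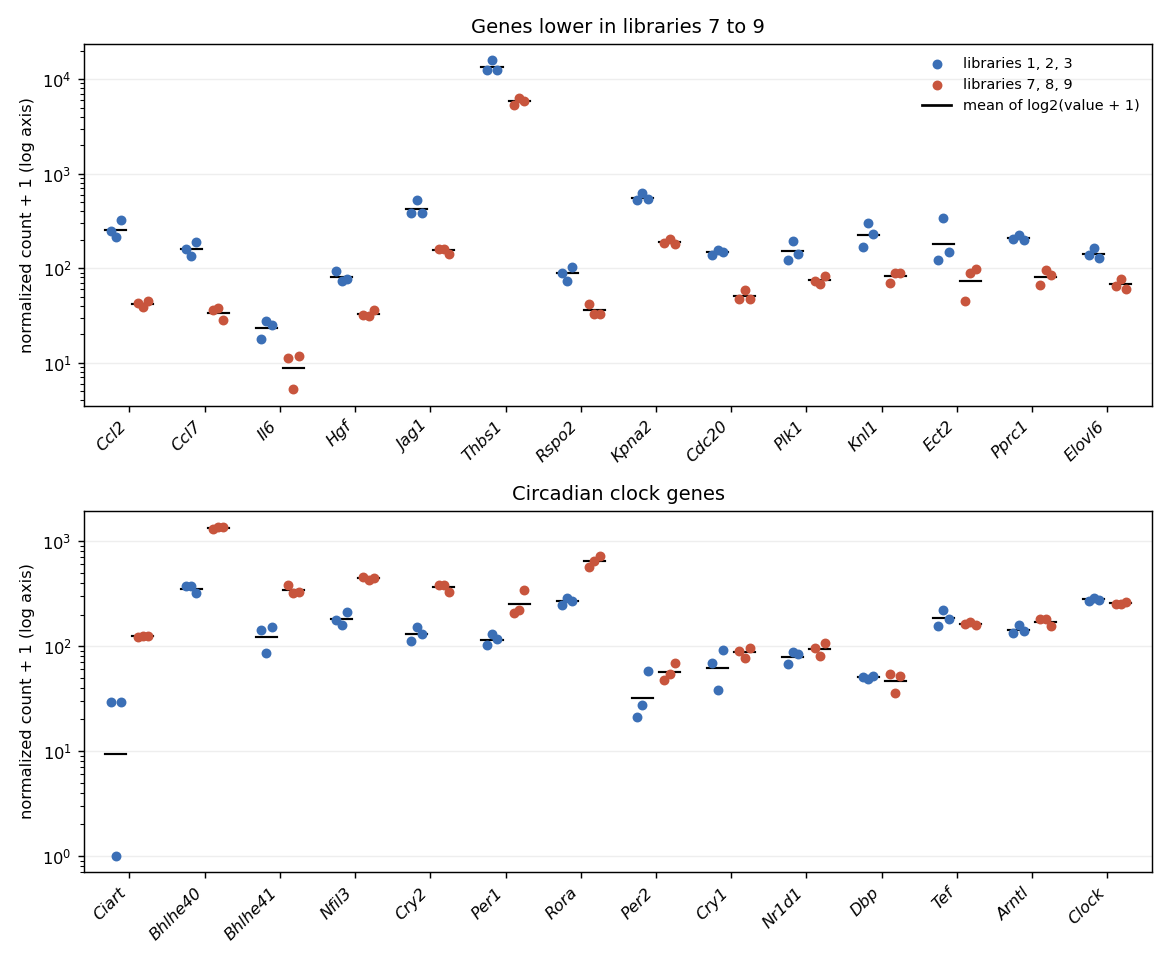
Normalized count + 1 (log axis) in the 6 wildtype libraries, 1 point per library with the mean on the log2 scale as a line: 14 genes lower in libraries 7 to 9 (top) and 14 clock genes (bottom). Ccl2 lies at 211 to 320 in libraries 1 to 3 and at 38.2 to 44.3 in libraries 7 to 9, and Ciart is drawn at 1 in library 2, where it had 0 reads.

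Genes of the contractile apparatus held few calls. All 11 myotube markers, chosen to check the labelled cell type, were measured in both sets, and 0 were called. Their summed level was 18960 to 20480 normalized counts in libraries 1 to 3 and 19752 to 23572 in libraries 7 to 9. The sum of 9 fibroblast markers was higher, at 134871 to 147641 and 141322 to 153223. The markers thus show myotube RNA in both sets, and the share of myotubes among the cells was not tested. Acta1, skeletal actin, had 3850.0, 3641 and 3547 normalized counts in libraries 1 to 3 and 4912, 4502 and 5067 in libraries 7 to 9, and Ttn (titin) had 4268, 4784 and 4155 against 3988, 3912 and 4262. Myog, the factor that drives differentiation, was lower without overlap at -0.64 ± 0.10, and so was Myod1 at -0.70 ± 0.06. Mymk, Casq2, Ckm, Des, Myh3, Myh8, Tnnt3 and Chrna1 lay between 0.12 and 0.42.

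Of 49 sarcomere genes 1 was called, Myh7b, at 7.92, 0 and 1.87 normalized counts in libraries 1 to 3 and 27.8, 48.8 and 19.98 in libraries 7 to 9, a few reads per library in the first set. Its difference was 3.40, or 2.62 without library 2. None of the 18 fusion and adhesion genes, the 23 genes of excitation-contraction coupling or the 18 acetylcholine receptor and synapse genes was called. Among 26 genes of myostatin, activin and follistatin signalling Fstl3, an activin antagonist, had 108, 91.4 and 142 against 442, 470.5 and 469.6, and Inha was the other call. Mstn (myostatin) overlapped at -0.23 ± 0.19. Inha differed by 2.75, and by 1.58 without library 2.

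Some regulators of muscle identity and mass were called. Of 25 myogenic regulators 2 were called higher and 2 lower, with a median of 0.15 (0.0082 without library 2). The higher ones were Id2 (1.24 ± 0.28), an inhibitor of helix-loop-helix factors, and Hdac9 (1.16 ± 0.21), a histone deacetylase. The lower ones were Id1 (-1.18 ± 0.33), a relative of Id2, and Heyl. Of 21 muscle atrophy and FOXO genes 4 were called higher and 0 lower, with a median of 0.41. They were Foxo3, Mt1 and Mt2, described above, and the ligase subunit gene Fbxo21 (1.24 ± 0.18).

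Markers of other cells moved in part with the sets. The summed level of 9 satellite cell and myoblast markers was 708 to 885 normalized counts in libraries 1 to 3 and 1247 to 1327 in libraries 7 to 9. The rise in this sum is that of 1 gene, the syndecan Sdc4, at 254 ± 53.03 and 737 ± 3.71 (mean ± SD, n = 3). Of the 8 measured members 1 was called higher (Sdc4) and 1 lower (Heyl), and Pax7 overlapped. The median of this list was 0.35, or 0.098 without library 2. Most of the adipocyte sum that follows is Fabp4, a fatty acid binding protein, at 111 ± 13.8 and 218 ± 7.36, with Adipoq and Cfd near 0 and Pparg overlapping. Most of the neuron and Schwann sum is the tubulin gene Tubb3, at 451 ± 26.9 and 329 ± 61.6. The sum of 8 smooth muscle and pericyte markers was 10188 to 11301 and 8702 to 9820. Of these 8 markers 0 were called and 7 overlapped. The other, Pdgfrb, was lower without overlap, with 2389, 3012 and 2349 against 1827, 1942 and 1973. The sum of 4 adipocyte markers was 119 to 153 and 223 to 243, and that of 5 neuron and Schwann markers 429 to 488 and 283 to 410. The sums of fibroblast markers (134871 to 147641 and 141322 to 153223, 9 genes) and of endothelial markers (1159 to 1324 and 1239 to 1339, 9 genes) overlapped. Endothelial members went both ways: 2 were higher and 3 lower without overlap, against 17.5% and 16.3% of all genes. The 1 called lower was Cldn5, with 27.3, 26.3 and 27.1 against 11.7, 6.37 and 10.7. Macrophage markers were near 0, at 56.3 to 77.4 and 49.5 to 67.2 summed over 9 genes, with Ptprc and Aif1 at 0 in libraries 1 to 3. The part of these cells in the differences was not tested, and in a bulk sample fewer cells of a type and less RNA per cell cannot be told apart.

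The most abundant RNAs also differed between the sets. The noncoding gene Gm42418 held 39.9%, 43.7% and 41.7% of the reads in libraries 1, 2 and 3 and 3.19%, 12.1% and 7.44% in libraries 7, 8 and 9. The gene with the identifier ENSMUSG00000045999 went the other way, with 0.700%, 0.436% and 0.456% against 19.8%, 10.8% and 18.4%. Reads counted for Lars2, the gene of the mitochondrial leucyl-tRNA synthetase, made up 5.70%, 5.47% and 4.63% against 0.480%, 1.59% and 0.841%. Whether these reads come from the mRNA of that gene was not tested. In the knockout, library 5 parts from libraries 4 and 6 in these shares, although its Ndrg1 count was as low as theirs. Gm42418 held 20.1%, 1.33% and 34.8% in libraries 4, 5 and 6 and 2.03% to 2.75% in libraries 10 to 12. ENSMUSG00000045999 held 3.82%, 30.5% and 1.47% against 28.7% to 42.3%. Whether these shares and the gene differences have a common source was not tested.

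Small nuclear and nucleolar RNA genes were called higher in 30 of 116 cases with a median of 1.01, but this rests on library 2. Without it 9 were higher and 4 lower, with a median of 0.31. Their share of the reads outside the 11 abundant genes was 0.470% in library 2 and 1.57% to 1.87% in the other wildtype libraries. Cytosolic ribosomal protein genes were not called in any of 83 cases, at a median of 0.26 (0.15 without library 2). Without overlap 62 of the 83 were higher and 1 lower, against 17.5% and 16.3% of all genes.

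Called genes are described here by properties that were not used in the choice of the sets. Median GC content of the transcripts was 51.6% for genes called higher, 50.8% for those called lower and 49.7% for all genes, and median transcript length was 3239, 3740 and 3449 bases. The median span of the gene on the chromosome was 17406, 25288 and 23942 bases. Median level was 66.7, 40.0 and 117 normalized counts, so called genes were less abundant than most. Protein-coding neighbours were called in the same direction in 38 pairs for higher and 7 for lower, among them Vamp2 with Per1, Mapk8ip1 with Cry2, and Pprc1 with Nolc1. Some pairs lie far apart, such as Plod2 and 1190002N15Rik with 1909436 bases between them. With 453 of 11989 protein-coding genes called higher and 206 lower, some pairs arise by chance. The share among all neighbouring pairs was not computed, so the 2 counts have no background.

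Knockout libraries 10 to 12 against 4 to 6, which are also alike in their labels, give another set of values from other samples. There 556 genes (4.4%) were called higher and 242 (1.92%) lower. Of the genes higher in wildtype libraries 7 to 9, 354 were also called higher there, 67.0% of the wildtype list and 63.7% of the knockout list. Of those lower, 69 were shared, 31.7% and 28.5%. Across the 12633 genes the 2 differences had a Pearson r of 0.663, given as a description, since genes are not independent and this knockout split was also read from hypoxia genes.

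The 4 markers had knockout differences of 4.08 (Ndrg1), 3.25 (Egln3), 2.55 (Slc2a1) and 3.62 (Ankrd37), beside 3.89, 3.14, 2.75 and 3.31 in wildtype. Among the genes called higher the median was 1.52 in wildtype and 1.40 in the knockout, and 493 of 528 had the same sign. Among those called lower it was -1.25 and -0.81, and 189 of 218 had the same sign. Ciart had 3.71 in wildtype, or 2.09 without library 2, and 2.74 in the knockout, so its larger value in wildtype rests on library 2. Ccl2 had -2.60 in wildtype and -3.32 in the knockout.

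Genes with a smaller value in the knockout include Knl1, at -1.46 in wildtype and -0.09 in the knockout, and Urb1, at -1.47 and -0.30. The gene mt-Co2, with 0 reads in wildtype libraries 1 to 3, was at 0.55 in the knockout. Hdac9 had the larger value there, at 1.16 in wildtype and 3.07 in the knockout. Stab1 was called lower in wildtype and higher in the knockout, at -1.67 and 1.01. The differences between the 2 genotypes were not tested.

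**Figure D5:**
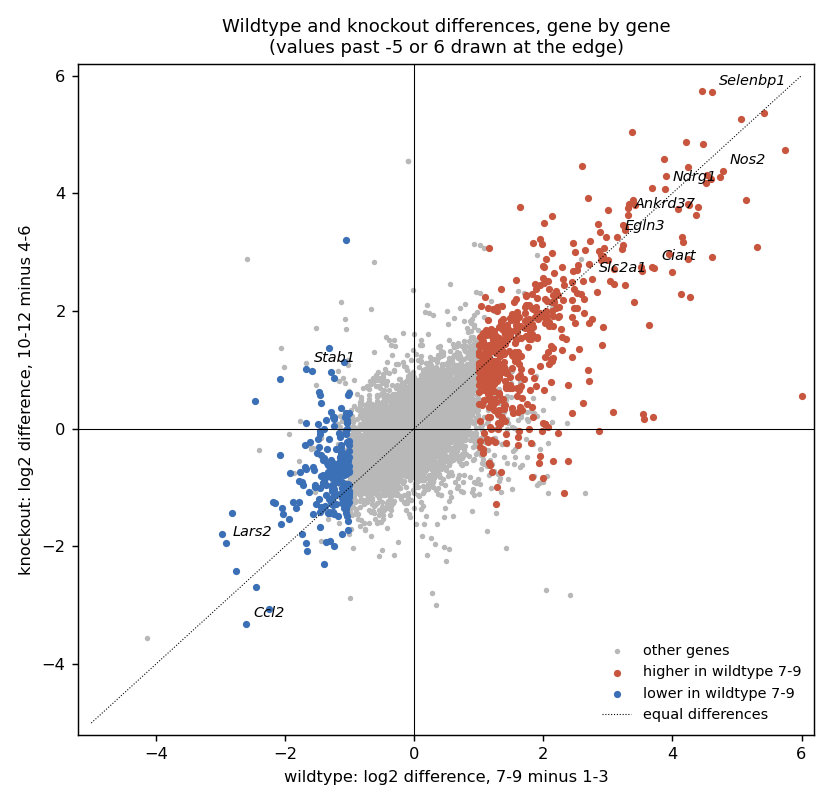
Log2 difference of wildtype libraries 7 to 9 minus 1 to 3 (horizontal) against knockout libraries 10 to 12 minus 4 to 6 (vertical), 1 point per gene for 12633 genes, coloured by the wildtype call. Most genes called higher lie along the line of equal differences, with 493 of 528 above 0 on the vertical axis, and those called lower lie nearer to 0 there, with a median of -0.81.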

How the data were processed

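Total RNA of mouse primary myotubes was sequenced with a strand-marking kit, per the labels' protocols. The submitters' processing notes name Trimmomatic 0.33, STAR 2.5.2, RSEM 1.3.3, DESeq2 (no version) and mm10; the gene annotation and the strand setting of the counting are not given in the sources used here. The deposited table holds a normalized count signal for 20201 genes in 12 libraries, which is whole reads divided by 1 factor per library: 100% of the values were whole reads within 1e-06. Gene names came from GENCODE M21 (98.9% matched), and promoters from RefSeq. Of 528 genes called higher 380 matched a promoter, too few to compare motif shares between gene sets, so no share of called genes is given.

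Genes with a mean of 10 or more over the 6 wildtype libraries were kept (12633; 7568 fell below). Values were taken as log2(normalized count + 1), which understates the change of low genes. A call needs 2-fold and no overlap of 3 libraries against 3. Because measured values split the sets, no count model was used for p-values; edgeR 4.0.16 gave scaling factors and a fitted fold as an alternative only. The scripts were tested on simulated data.

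The sets, the 49 gene lists and the rule for named genes were chosen with earlier results of these data known. Named were the 4 markers, the 25 largest positive and negative called differences at a mean of 50 or more (predicted genes, Rik genes and pseudogenes left out), up to 2 called genes per direction of each list or its most abundant member, and all clock and myotube marker genes, 130 in all, a few of which are not reported here. Other genes were named to describe lists after their values were seen. Lists not described singly had these counts of higher and lower calls: serine and one-carbon 1 and 0 of 12, heat shock 0 and 1 of 24, mitochondrial biogenesis 1 and 1 of 25, autophagy 3 and 0 of 33, mTOR 1 and 0 of 15, cholesterol 0 and 1 of 33, iron 1 and 0 of 12, p53 targets 0 and 1 of 21, interferon 1 and 0 of 45, IGF 1 and 0 of 19, imprinted 1 and 0 of 13, and 0 for 19 apoptosis, 74 mitochondrial ribosomal protein and 55 histone genes. Alternatives were the pseudocount, the filter, the fold, the scaling, each library left out, thinning and edgeR's fitted fold.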

Additional observations from a re-analysis of the deposited data

Results flagged for a closer look

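In 132 sets of 6 wildtype values (130 named genes, the reads and the genes at 0), a library was noted where its gap to the nearest other exceeded Dixon's 95% limit for 6 samples. Chance exceeds this limit in about 1 of 20 sets only if all 6 values come from 1 normal population. Here the 6 values span the 2 sets of libraries, which differ for most named genes. That rate therefore does not hold, and the number of cases was not set against chance. Library 2 was the outlying one in 11 of the 12 cases. It had the fewest reads, 6376584, and the most genes at 0, 29.6%.

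Library 2 was highest for Ddx31 (146 normalized counts), Ect2 (336), Lama5 (1573), Per3 (74.3), Usp46 (212) and Zfp518b (307). It was lowest for the ATP synthase gene Atp5b (3652), the linker histone gene Hist1h1c (671) and the mitochondrial ribosomal protein gene Mrpl30 (155). The part of its depth in these values was not tested. Library 8 was lowest for the clock output gene Dbp, at 34.7.

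The named genes Stab1 and Hspa1a moved in opposite directions in the 2 genotypes, with no overlap in either, and the difference was not tested. Stab1, a scavenger receptor gene, differed by -1.67 in wildtype and 1.01 in the knockout, and Hspa1a, a heat shock gene, by -1.01 and 0.27.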

How the results depend on the processing

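The counts of 528 genes called higher and 218 lower depend most on the fold and the level asked for. A 1.5-fold limit gave 1060 and 772, and a 4-fold limit 164 and 15. A mean of 50 or more gave 297 and 91, no filter gave 960 higher, and a pseudocount of 10 gave 100 lower; fewer or more genes tested is part of these settings, and the cause was not tested otherwise. Leaving out each library in turn gave 481 to 663 higher and 199 to 346 lower, with 346 without library 1 and 334 without library 3, where 3 libraries are compared with 2 and no overlap is easier to meet. Scaling by TMM, by quantiles, by upper quartile or by median of ratios kept both counts within 1.5 times, as did edgeR's fitted fold (478 and 267). The median over all genes stayed between -0.088 and 0.015 at the mean of 10 or more.

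Of 98 named calls, 9 were lost without library 2, the largest loss of any setting at the same fold: Cdkn1c, Ddx31, Ect2, Elovl6, Htra3, Lama5, Ptgir, Usp46 and Zfp518b. Hspa1a was lost in 6 other settings. Id1 and Ect2 were lost without library 7, and Stab1 and Isg20 with thinned reads. No named gene changed its direction while called. List medians that changed sign with the scaling were those of collagens, stress response, mitochondrial biogenesis, antioxidant, iron, mTOR, interferon, excitation-contraction, acetylcholine receptor, fibroblast marker and mitochondrial ribosomal genes, all near 0.

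No paired analysis was possible because the replicate numbers follow the order of the titles, the labels pair no libraries, and no test was run. Depth limits low genes, chiefly in library 2.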
